A study of Homo sapiens with 5 samples.

Results

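Binding of the retinoblastoma protein Rb was examined at 10 genes that encode Polycomb proteins. They were EZH2, EZH1, EED and SUZ12, which encode the core of Polycomb repressive complex 2 (PRC2), JARID2 and PHF19, which encode accessory proteins of PRC2, and BMI1, RING1, RNF2 and CBX2, which encode subunits of Polycomb repressive complex 1 (PRC1). The list was a choice of gene names, 10 of the 19970 protein-coding genes that GENCODE 44 places on chromosomes 1 to 22 and X. For each gene, Rb peaks were taken from 2000 bp upstream to 500 bp downstream of any annotated transcription start site (TSS), called its promoter here, and from the rest of the gene body.

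Rb was mapped by CUT&RUN, a method that uses an antibody to bring a nuclease to a protein on chromatin and sequences the DNA it sets free. The cells were parental ZR-75-1, an established oestrogen receptor-positive breast cancer cell line, given DMSO or 500 nM abemaciclib, a CDK4/6 inhibitor, for 4 days. Each treatment had 2 Rb libraries, and 1 IgG2a library made from DMSO cells served as the background. The study describes replicates as independent cultures, all of 1 cell line at 1 drug dose. The lists held 1438 and 2582 peaks in DMSO libraries 1 and 2, 13960 and 12234 in abemaciclib libraries 1 and 2, and 589 in IgG2a, of which 84 lay on chromosomes 1 to 22 and X.

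Polycomb complexes keep genes silent through histone marks. EZH2 or EZH1, as the catalytic subunit of PRC2, methylates lysine 27 of histone H3, and EED and SUZ12 are needed for that activity. PRC1 places ubiquitin on histone H2A through RING1 or RNF2, and CBX proteins in canonical PRC1 read the methyl mark. Rb and its relatives hold E2F transcription factors in check, CDK4/6 inhibition keeps Rb underphosphorylated and able to bind E2F, and EZH2 and EED are textbook E2F target genes.

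All 10 genes had an Rb promoter peak in at least 1 abemaciclib library, and 3 had one in DMSO. EZH2 and SUZ12 had a promoter peak in all 4 Rb libraries, and EZH1 in both abemaciclib libraries and DMSO library 2. EED, JARID2, PHF19, RING1, RNF2 and CBX2 had one in each abemaciclib library but in neither of the DMSO libraries, a pattern called gained here. BMI1 had one in abemaciclib library 2 alone. No member had an IgG2a peak, either at a promoter or in the gene body, and 6 IgG2a peaks lay at coding promoters in all.

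Against all coding genes, a promoter peak in both abemaciclib libraries was found for 9 of 10 members and for 52.7% of genes. The gained pattern was found for 6 of 10 members and for 38.9% of genes. A peak in all 4 libraries was found for 2 members and for 6.41% of genes, one in both abemaciclib libraries and a single DMSO library for 1 member and for 7.39%, and one in a single abemaciclib library with none in DMSO for 1 member and for 6.53%. Members had a median of 7 annotated start sites and all coding genes a median of 5, so the members offered somewhat more sequence in which a peak could be listed. None of the 10 genes had a peak elsewhere in its body in both abemaciclib libraries, or in any Rb library, although the bodies ranged from 4.22 kb (RING1) to 276 kb (JARID2). Among all coding genes, 5.64% had such a body peak in both abemaciclib libraries, so its absence is the common state and does not set the members apart.

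Sequence under the summits is given for 5 members, which include EZH2, EZH1 and SUZ12, the most strongly bound, and differ in what the summit window holds. EED had higher coverage than RNF2 and PHF19. It is left out because too little of its window lies outside annotated untranslated regions. Each run is the part of the 200-bp window centred on the abemaciclib library 1 summit that lies outside annotated untranslated regions, read 5′ to 3′ on the strand of the gene in GRCh38. Capitals mark 3 kinds of match on either strand, namely E2F words (TTNNCGC with each N being either C or G), the NFY word CCAAT, and the cell cycle homology region (CHR) word TTTGAA.
EZH2, chr7:148884511-148884710, minus strand: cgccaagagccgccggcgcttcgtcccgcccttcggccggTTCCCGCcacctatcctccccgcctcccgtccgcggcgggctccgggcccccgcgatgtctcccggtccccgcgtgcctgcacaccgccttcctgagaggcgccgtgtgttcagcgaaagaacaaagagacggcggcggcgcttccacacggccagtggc
SUZ12, chr17:31936814-31937006, plus strand: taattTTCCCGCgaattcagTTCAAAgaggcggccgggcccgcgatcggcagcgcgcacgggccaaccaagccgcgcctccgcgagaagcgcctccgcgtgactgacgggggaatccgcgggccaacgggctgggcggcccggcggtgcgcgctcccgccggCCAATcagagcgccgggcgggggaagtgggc
RNF2, chr1:185045332-185045525, plus strand: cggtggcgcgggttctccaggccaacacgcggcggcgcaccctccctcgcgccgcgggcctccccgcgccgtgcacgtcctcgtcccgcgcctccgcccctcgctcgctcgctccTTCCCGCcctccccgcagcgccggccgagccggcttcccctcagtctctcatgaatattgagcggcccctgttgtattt
EZH1, chr17:42744693-42744892, minus strand: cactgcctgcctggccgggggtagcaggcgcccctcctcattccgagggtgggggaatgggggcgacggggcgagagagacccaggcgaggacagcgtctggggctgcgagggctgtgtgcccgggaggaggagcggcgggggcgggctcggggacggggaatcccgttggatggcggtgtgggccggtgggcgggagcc
PHF19, chr9:120868959-120869158, minus strand: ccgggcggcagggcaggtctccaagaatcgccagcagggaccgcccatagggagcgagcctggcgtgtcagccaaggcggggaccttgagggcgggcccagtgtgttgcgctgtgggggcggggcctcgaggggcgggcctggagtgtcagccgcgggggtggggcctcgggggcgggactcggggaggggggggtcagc
EZH2, SUZ12 and RNF2 each held 1 E2F match in this window, and in all 3 it was the word TTCCCGC. SUZ12 also held a CHR match, read as TTCAAA on the printed strand, and a CCAAT. The window of EZH1, which had the second highest coverage among the members, held none of the 3, nor did that of PHF19. In abemaciclib library 2 the windows of EZH2, SUZ12 and RNF2 held no E2F match. An E2F and an NFY match can share letters where they abut. Matches describe letters in a window and were not tested as binding sites.

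Peak heights were compared between libraries as summit coverage, the number of fragments piled up at the summit divided by the mean fragment coverage of the genome in that library. Both numbers were recovered from the fold enrichment and the Poisson p-value of the peak. The genome means were 0.649 and 0.677 fragments in DMSO libraries 1 and 2, and 0.656 and 0.521 in abemaciclib libraries 1 and 2. The median promoter peak of a coding gene stood at 16.9 and 16.2 times the genome mean in DMSO and at 39.6 and 40.3 times in abemaciclib. Ranks are by p-value within a library, with 1 the strongest.

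**Figure D1:**
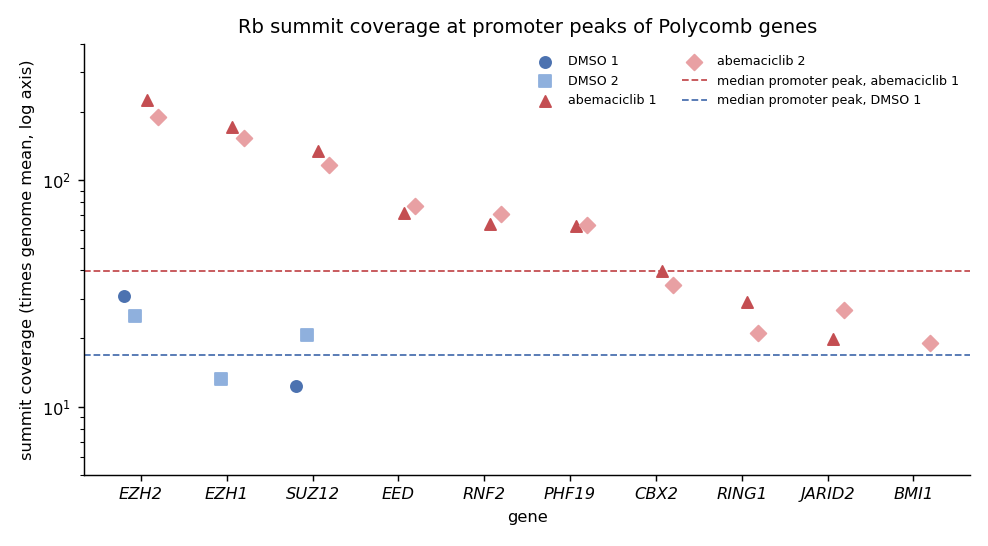
Summit coverage (times the genome mean, log axis) of the strongest promoter peak of each gene in the 4 Rb libraries, 1 point per library; a missing point means that no peak was listed, and dashed lines give the median coding promoter peak of abemaciclib library 1 (39.6) and DMSO library 1 (16.9). EZH2, EZH1 and SUZ12 lie at 117 or more in both abemaciclib libraries, and BMI1 has 1 point.

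Among the core PRC2 genes, EZH2 was the most strongly bound member in every Rb library. Its gene (chr7:148807257-148884321, minus strand) carried a DMSO peak of rank 108 of 1438 in library 1 and rank 291 of 2582 in library 2, with 12.7-fold and 10.7-fold enrichment and −log10 p of 23.9 and 19.1. In abemaciclib the ranks were 207 of 13960 and 266 of 12234, with 75.2-fold and 65.7-fold enrichment and −log10 p of 263 and 186. Summit coverage was 30.8 and 25.1 times the genome mean in the DMSO libraries and 227 and 190 times in the abemaciclib libraries, so the groups did not overlap. Means were 28.0 ± 4.02 in DMSO and 208.6 ± 26.4 in abemaciclib (SD, n = 2 each). The ratio was 7.47-fold, a log2 difference of 2.90, and single library pairs gave 6.17-fold to 9.05-fold.

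All 4 EZH2 summits lay upstream of the canonical start site, at −149 and −292 bp in DMSO and at −320 and −246 bp in abemaciclib. The peak itself spanned 427 and 636 bp in DMSO, and 2104 and 1096 bp in abemaciclib. The 2104-bp peak of abemaciclib library 1 (chr7:148883255-148885358) was wider than 97.6% of the 9805 coding promoter peaks of that library, whereas the peak of library 2 was wider than 70.8% of 9081.

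SUZ12 (chr17:31937007-32001038, plus strand) was bound at its start site in every Rb library. The DMSO peaks ranked 919 and 481 with 5.46-fold and 8.94-fold enrichment, and rested on 8 and 14 fragments at the summit. In abemaciclib the ranks were 682 and 853, with 53.8-fold and 40.8-fold enrichment and 88 and 61 fragments. Summit coverage was 12.3 and 20.7 times the genome mean in DMSO and 134 and 117 times in abemaciclib, again without overlap. Means were 16.5 ± 5.91 and 125.6 ± 12.1 (SD, n = 2 each), a ratio of 7.85-fold or 2.97 on the log2 scale, with single pairs from 5.66-fold to 10.9-fold. The summits fell within 134 bp of the start site, at −81, −134, −93 and 11 bp in the order DMSO 1, DMSO 2, abemaciclib 1 and abemaciclib 2. Processed copies of EZH2 or SUZ12 sequence elsewhere in the genome were not examined.

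With 2 libraries against 2, the exact permutation test is limited to p = 0.33 (two-sided), which is the value for both genes. Across the 995 promoter regions of coding genes with a peak in all 4 libraries, the median ratio was 7.37-fold, or 2.88 on the log2 scale (quartiles 2.58 and 3.15). By mean log2 coverage, 995 of 995 were higher in abemaciclib, and overlap between single libraries was not counted. EZH2 exceeded 51.8% of these regions and SUZ12 58.5%, so both moved close to the median of the promoters that were bound under both treatments. Relative to that median the log2 differences were 0.020 for EZH2 and 0.092 for SUZ12.

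**Figure D2:**
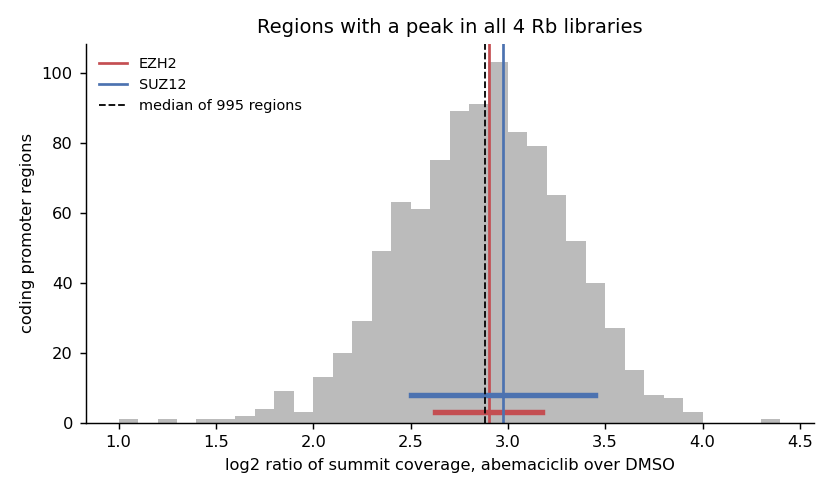
Histogram of the log2 ratio of mean summit coverage, abemaciclib over DMSO, in 995 coding promoter regions with a peak in all 4 Rb libraries (y axis, regions); vertical lines mark EZH2 (2.90), SUZ12 (2.97) and the median (2.88), and horizontal bars the range over single library pairs. Both genes lie near the middle of the distribution.

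EZH1 (chr17:42700275-42745049, minus strand), the paralogue of EZH2 that is also used in non-dividing cells, was nearly as strongly bound as EZH2 in abemaciclib but weakly in DMSO. DMSO library 1 listed no peak, and the peak of DMSO library 2 ranked 1472 of 2582 with 5.69-fold enrichment and 9 fragments at its summit. In abemaciclib the peaks ranked 393 and 475 with 67.5-fold and 51.5-fold enrichment. Summit coverage was 13.3 times the genome mean in DMSO library 2 and 172 and 153 times in abemaciclib (mean 162.9 ± 13.3, SD, n = 2). The DMSO 2 summit lay at −49 bp from the nearest coding start site, and the abemaciclib summits at 237 and 129 bp, in an intron. Set against DMSO library 2 alone, abemaciclib coverage was 12.2-fold higher at EZH1, 8.27-fold at EZH2 and 6.06-fold at SUZ12, with a median of 6.09-fold over 1995 coding promoter regions bound in those 3 libraries. The EZH1 ratio exceeded 97.9% of these regions. It rests on 9 fragments in a single DMSO library, compares summits at different positions on either side of the start site, and has no replicate check.

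EED (chr11:86201212-86278813, plus strand), whose protein reads the methyl mark that PRC2 makes, was gained. Its abemaciclib peaks ranked 2303 and 1874 with 29.0-fold and 26.95-fold enrichment, and summit coverage was 71.7 and 76.7 times the genome mean (mean 74.2 ± 3.58, SD, n = 2). Of the members bound in both abemaciclib libraries it had the most repeatable summit, with 8 bp between the libraries. Both summits lay in a UTR, 181 and 173 bp downstream of the canonical start site, and the peaks also overlap the promoter of the non-coding gene ENSG00000288809.

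Of the accessory genes, PHF19 (chr9:120855651-120894896, minus strand), whose protein helps PRC2 find its chromatin targets, had abemaciclib peaks of rank 3077 and 2953 with 23.1-fold and 19.1-fold enrichment. Summit coverage was 62.5 and 63.3 times the genome mean (mean 62.9 ± 0.556, SD, n = 2). The summits lay 8129 and 8014 bp downstream of the canonical start site, at −148 and −263 bp from an internal coding start site, and no library listed a peak at the canonical one.

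JARID2 (chr6:15246069-15522042, plus strand), which encodes a DNA-binding partner of PRC2, had the lowest mean coverage of the members bound in both abemaciclib libraries, although RING1 was lower in library 2. Its strongest peaks ranked 9355 and 6549 with 7.02-fold and 9.86-fold enrichment, and summit coverage was 19.8 and 26.9 times the genome mean (mean 23.3 ± 4.97, SD, n = 2). They lay 2440 and 2137 bp downstream of the canonical start site, next to an alternative one, where the promoter of the antisense RNA gene JARID2-AS1 overlaps, so the peak cannot be assigned to either gene alone. Abemaciclib library 1 listed a further peak of 7 fragments at −348 bp from the canonical start site, which ranked 12002 of 13960 and was not listed in library 2.

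**Figure D3:**
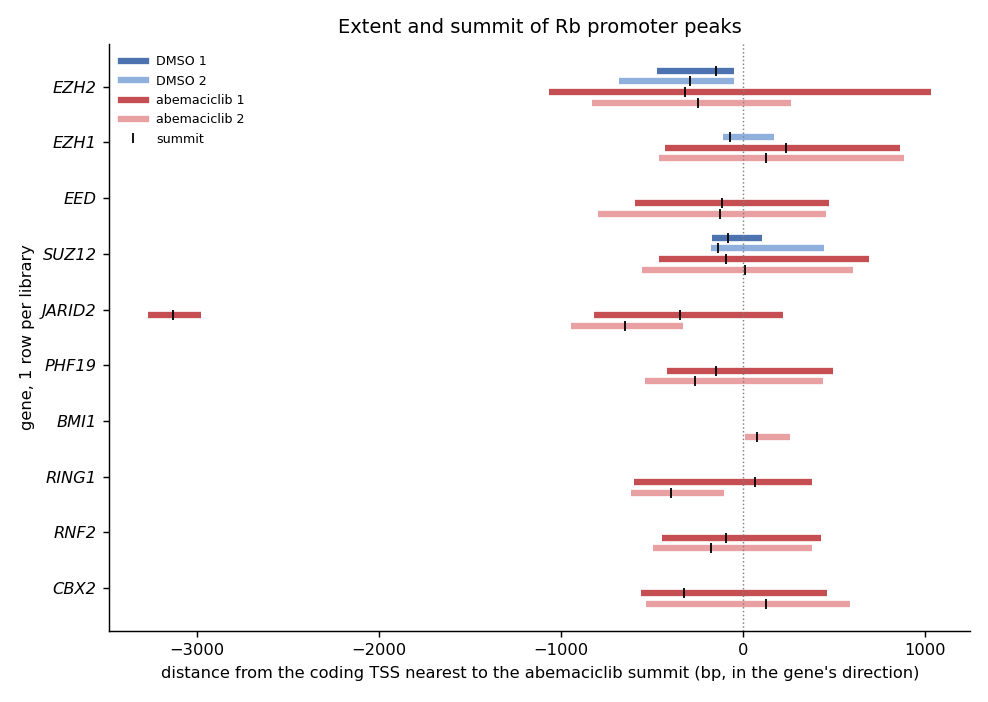
Extent (bars) and summit (ticks) of every promoter peak of the 10 genes in the 4 Rb libraries, as distance in bp from the coding start site nearest to the abemaciclib summit, in the direction of the gene. EZH2 and SUZ12 have 4 rows of peaks, EZH1 3 and BMI1 1, and JARID2 has a second peak in abemaciclib library 1.

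Among the PRC1 genes, RNF2 (chr1:185045526-185102603, plus strand), which encodes the main ubiquitin ligase of the complex, had the highest coverage. Its abemaciclib peaks ranked 4289 and 3456, with summit coverage of 64.0 and 71.0 times the genome mean (mean 67.5 ± 4.90, SD, n = 2), close to that of EED and PHF19. Enrichment was lower, at 13.5-fold and 13.98-fold, and the local background that the peak caller used was 2.18 and 1.72 fragments there, above the genome means of 0.656 and 0.521. The summits lay at −94 and −176 bp from the nearest coding start site.

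CBX2 (chr17:79778148-79787983, plus strand), which encodes a reader of the methyl mark, had abemaciclib peaks of rank 6201 and 6723 with 11.1-fold and 8.76-fold enrichment. Summit coverage was 39.6 and 34.5 times the genome mean (mean 37.1 ± 3.62, SD, n = 2), near the median promoter peak. Its enrichment was below the median coding promoter peak (13.5-fold and 12.4-fold). The local background there was 1.44 and 1.17 fragments, above the genome means. The peaks shared 998 bp although their summits were 452 bp apart.

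RING1 (chr6:33208500-33212722, plus strand), the paralogue of RNF2, ranked 6537 and 7863 with 12.1-fold and 7.89-fold enrichment. Summit coverage was 29.0 and 21.1 times the genome mean (mean 25.04 ± 5.57, SD, n = 2), and the summits lay 460 bp apart, at 68 and −392 bp from the start site. Both peaks also overlap the promoters of the non-coding genes ENSG00000288751 and MIR219A1. BMI1 (chr10:22321099-22331484, plus strand), which encodes a partner of these ligases in canonical PRC1, had a single peak of 10 fragments in abemaciclib library 2, of rank 9248 of 12234, with 6.18-fold enrichment, −log10 p of 9.10 and coverage of 19.2. It lay 80 bp downstream of the start site, and no peak was listed in abemaciclib library 1. In that library at least 5 fragments at the genome mean background were needed to reach the lowest listed p-value.

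In order of mean abemaciclib coverage, the members stood as EZH2, EZH1, SUZ12, EED, RNF2, PHF19, CBX2, RING1 and JARID2. The ranges of the 2 libraries did not overlap between EZH2 and EZH1, between EZH1 and SUZ12, between SUZ12 and EED, between PHF19 and CBX2, or between CBX2 and RING1. EED and RNF2, and RNF2 and PHF19, were separated by under 1 unit, and the ranges of RING1 and JARID2 overlapped. By fold enrichment, the ranges of EZH2 and EZH1, of EZH1 and SUZ12, and of CBX2 and RING1 also overlapped. On that measure PHF19 (23.1 and 19.1) stood above RNF2 (13.5 and 13.98). The median over these 9 members was 67.5 times the genome mean, against 43.8 over the 10514 coding genes with a resolved peak in both abemaciclib libraries. With 2 libraries, an order between neighbours has no test that could pass a threshold.

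Whether a gene also had a DMSO peak went with its abemaciclib coverage across all coding genes. In the highest decile by mean abemaciclib coverage, which held EZH2 and EZH1, 78.0% of genes had a peak in both DMSO libraries, 16.6% in 1 and 5.32% in neither. In the next decile, that of SUZ12, the shares were 28.7%, 42.1% and 29.2%. In the decile of EED 56.7% of genes had no DMSO peak, in that of RNF2 and PHF19 75.4%, in that of CBX2 93.9%, in that of RING1 97.6% and in that of JARID2 98.5%. Each gained member, and EZH2, had the most common DMSO state of its own decile. EZH1, with 1 DMSO peak, and SUZ12, with both, did not. Divided by the median ratio of 7.37, the coverage of the 6 gained members in abemaciclib would come to 10.1 for EED, 9.17 for RNF2, 8.54 for PHF19, 5.04 for CBX2, 3.40 for RING1 and 3.17 for JARID2. That ratio came only from regions with a peak in both DMSO libraries. Whether it holds for genes without a DMSO peak was not tested. At the genome mean background, the fewest fragments reaching the lowest listed p-value came to 9.24 in DMSO library 1 and 8.86 in library 2. A DMSO level below about those values was not detectable at this depth. The absence of a DMSO peak at PHF19, CBX2, RING1 and JARID2 therefore sets no difference in ratio between them and EZH2 or SUZ12. RNF2 lay below the value of library 1, and its local background in abemaciclib (2.18 and 1.72 fragments) exceeded the genome mean, so its absence sets none either. EED lay only just above both values.

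**Figure D4:**
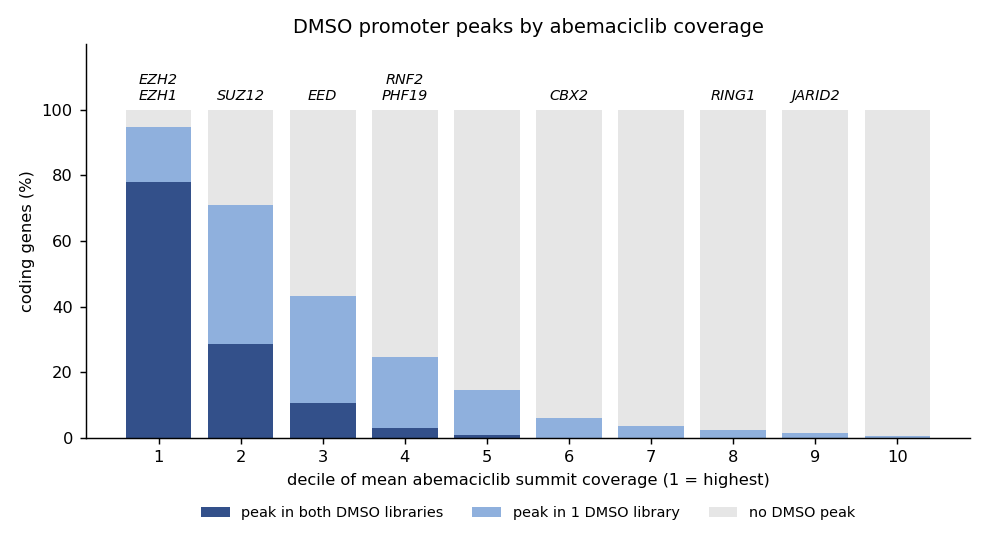
Share of coding genes (%) with a promoter peak in both, 1 or neither DMSO library, by decile of mean abemaciclib summit coverage (1 is the highest), for 10514 genes with a peak in both abemaciclib libraries; members are named above their decile. The share with both DMSO peaks falls from 78.0% in decile 1 to 2.95% in decile 4, that of RNF2 and PHF19.

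The summit windows were set beside all coding promoter peaks of the same library. In abemaciclib library 1, 6 of 9 members (EZH2, EED, SUZ12, JARID2, RING1 and RNF2) held an E2F word within the 200-bp window, against 18.2% of windows. In abemaciclib library 2 only EED, 1 of 10 members, did so, against 18.4% of windows. In DMSO library 2 all 3 bound members held one, against 28.1%, and in DMSO library 1 neither of 2, against 29.9%. The count moved with the position of the summit, which differed by 8 to 460 bp between the abemaciclib libraries, and the 6 of 9 did not repeat. EED, with the smallest shift, held the word in both.

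The CHR word was found for SUZ12 alone, in 3 of its 4 windows, against 3.49% to 4.76% of windows. CCAAT was found in 1 of 9 members' windows in abemaciclib library 1 (SUZ12) and 2 of 10 in library 2 (EZH1 and SUZ12), against 19.1% and 19.9% of windows. In DMSO library 1 both bound members, EZH2 and SUZ12, held it, against 31.0%, and in DMSO library 2 none of 3 did, against 30.2%. The word GGGCGG of SP factors was present in 8 of 9 members' windows in abemaciclib library 1 and 9 of 10 in library 2, against 61.8% and 61.1%.

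A second view that does not use summits was the RefSeq promoter, from 250 bases before to 50 after a start, in which 9 members had an entry. EZH2 held 1 E2F word and 4 CCAAT words at its main promoter, SUZ12 1 E2F, 1 CCAAT and 1 CHR word, and EZH1 and RNF2 1 E2F word each. CCAAT was also present at RefSeq promoters of EED, JARID2 and PHF19. These words were present in 12.97% (E2F), 34.6% (CCAAT) and 15.2% (CHR) of the 35116 promoters of the table. PHF19 held an E2F word at the promoter of its canonical start site, where no Rb peak was listed, and none at the internal promoter that carried its peak. No E2F word was present in the RefSeq promoters of EED, JARID2, BMI1 and RING1.

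A wider list of 40 Polycomb genes, none of them among the 10, covered partners of PRC2, other PRC1 subunits, the PR-DUB deubiquitinase that removes ubiquitin from H2A, and H3K27 demethylases. Of these, 34 had a promoter peak in both abemaciclib libraries, as did 52.7% of coding genes. The gained pattern was found for 27 of the 40 (67.5%, against 38.9% of coding genes). The 40 genes had a median of 10 annotated start sites and all coding genes 5, so they offered more sequence in which a peak could be listed. A peak in all 4 libraries was found for 3 of 40, or 7.5% against 6.41%. The median coverage of the 34 was 40.7 times the genome mean, below that of the 9 bound members (67.5) and near that of all coding genes (43.8). Outside promoter windows, 5 of the 40 had a gene body peak in both abemaciclib libraries (CBX7, KDM2B, BCOR, FOXK1 and KDM6B, named after their values were seen). Such a peak was found for 5.64% of coding genes.

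The 3 wider genes bound in all 4 libraries were all PRC2 partners. PHF1, a relative of PHF19, stood at 18.5 and 20.7 times the genome mean in DMSO and 138.8 and 138.1 times in abemaciclib, close to SUZ12. LCORL and LCOR also encode PALI proteins, which join PRC2. LCORL stood at 16.9 and 17.7 in DMSO and 146.4 and 178.4 in abemaciclib. LCOR stood at 13.9 and 14.8 in DMSO and 103.7 and 107.4 in abemaciclib. All 3 were above their DMSO values in both abemaciclib libraries. By mean log2 coverage, 995 of the 995 coding promoter regions with a peak in all 4 libraries were higher in abemaciclib. A rise therefore does not set these 3 genes apart. In how many of those regions single libraries did not overlap was not counted. Without DMSO library 1 the number bound in all remaining libraries was 6, the others being PCGF2 and CBX8 of canonical PRC1 and the demethylase gene KDM6B. The share over all coding genes rose as well, from 6.41% to 12.4%.

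By complex, 3 of 9 PRC2 partners, 7 of 10 canonical PRC1 genes, 11 of 13 variant PRC1 genes, 5 of 6 PR-DUB genes and 1 of 2 demethylase genes were gained. Over all coding genes the gained share was 38.9%. Among the gained genes with the best mean abemaciclib rank were BAP1, the catalytic subunit of PR-DUB (coverage 128.1 and 107.4), ASXL1, a cofactor of BAP1 (90.0 and 101.7), RBBP7, a histone-binding subunit of PRC2 (80.8 and 78.7), and E2F6, an E2F that does not bind Rb and acts in a variant PRC1 (61.0 and 48.0). BAP1 thus had no DMSO peak at a coverage in abemaciclib close to that of SUZ12. EZHIP and ASXL3 had no promoter peak in any Rb library.

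**Figure D5:**
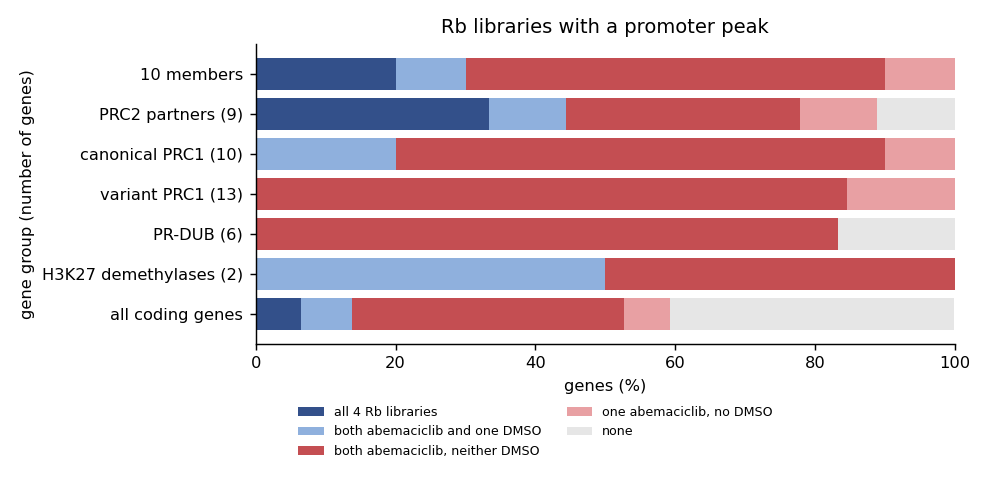
Share of genes (%) by the Rb libraries that listed a promoter peak, for the 10 members, 5 groups of other Polycomb genes with their numbers in brackets, and all 19970 coding genes. Peaks in all 4 libraries occur in the members (2 of 10) and the PRC2 partners (3 of 9), and in no gene of the other 4 groups, which holds with all 4 libraries only, since PCGF2, CBX8 and KDM6B join them without DMSO library 1.

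By position in the 4 ranked lists, the genes most like EZH2 among 1281 coding genes with a peak in every Rb library were NUBP1, C5orf22 and DROSHA. Their largest rank differences from EZH2 over the 4 libraries were 0.25, 0.29 and 0.29 on the log2 scale. C5orf22 and DROSHA share a single promoter peak.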

How the data were processed

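Rb CUT&RUN peak lists of ZR-75-1 cells (2 DMSO, 2 abemaciclib) and 1 IgG2a list were used, with groups and replicate numbers from the sample titles. The authors used BBDuk for trimming and Bowtie2 2.3.4.1 for alignment to GRCh38, removed blacklisted and mitochondrial reads, kept duplicates, and called peaks per library with MACS2 2.2.7.1 at q 0.05 against IgG. The deposited values are a fold enrichment (a ratio of pileup plus 1 to local background plus 1), the −log10 of the summit's Poisson p-value and that of its q-value. Each fold and p belongs to 1 library and was used there only.

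The whole-number pileup and local background that give both values were solved (tolerance 0.002 in the pileup), which resolved between 99.8% and 100% of peaks on chromosomes 1 to 22 and X. The most frequent local background of a library was taken as its genome mean coverage. The recovery was tested on simulated peaks, nearly all with pileups above those of the weakest listed peaks, so it was hardly tested there. Some of the weakest peaks were given a pileup below the fewest fragments that reach the lowest listed p-value. The lowest was 5 against 6 in DMSO library 2 and 4 against 5 in both abemaciclib libraries. Such pileups are too low, and the fault was not limited to the weakest peaks. In abemaciclib library 2, wider genes at rank 8892 of 12234 were given 7 fragments, while a weaker peak at rank 9588 was given 8. The tolerance let such pileups pass, so a resolved peak is not always a correct one and the resolved share can be too high. Dividing by the genome mean does not correct for the share of fragments in peaks. Peak lists hold no counts over common regions, so no count model was run, total fragment numbers are not given, and a region just under the threshold counts as having no peak.

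Genes were from GENCODE 44, promoters as in the study, and an overlap of 1 bp counted. Promoter sequences were from RefSeq (9 of 10 members matched) and summit windows from GRCh38. Named genes were all 10 members and, of the wider list, those bound in all 4 libraries, the 5 gained ones with the best mean abemaciclib rank (1 is not reported here) and those with no peak; of all other genes, the 3 closest to EZH2 in rank. The members, lists and tests were chosen with earlier results of these data known. The exact permutation test over 2 against 2 libraries has a smallest two-sided p of 0.333, and comparisons with all coding genes are descriptions without a test. Alternatives covered the q threshold, list size, promoter definition, IgG2a overlap, scaling, the replicate block and leaving out each library. Analyses used Python 3.11.15, numpy 2.4.6, pandas 2.3.3 and scipy 1.17.1.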

Additional observations from a re-analysis of the deposited data

How the results depend on the processing

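Of 80 alternative values for 8 results, 75 kept their direction and, for counts, stayed within 1.5 times the reported one. Taken relative to the median of the shared promoter regions, however, the log2 ratios shrank from 2.901 to 0.020 for EZH2 and from 2.973 to 0.092 for SUZ12 (exact permutation p = 1 for each). At q of at most 1e-05, 1 member (EZH2) kept a peak in all 4 libraries, since SUZ12 had none at that threshold in 1 DMSO library. The share of coding genes with a peak in all 4 was then 3.19%. With every list held to its 1438 strongest peaks, 3 members (EZH2, EZH1 and SUZ12) had a peak in both abemaciclib libraries, 1 member (EZH1) and 2 of the 40 wider genes were gained, and the gained share of coding genes was 1.12%. Leaving out 1 library at a time gave 3 to 6 wider genes bound in every remaining library, 6 without DMSO library 1. The members' counts were 2 to 3 for all libraries, 6 to 7 for gained and 9 to 10 for both abemaciclib libraries. The shares over all coding genes moved too, between 6.41% and 12.4% for all remaining libraries and between 40.1% and 44.8% for gained. EZH1 was bound in all libraries without DMSO library 1 and gained without DMSO library 2, and BMI1 was gained without abemaciclib library 1. The log2 ratios then ranged from 2.754 to 3.048 for EZH2 and from 2.599 to 3.347 for SUZ12, and fold enrichment in place of coverage gave 2.588 and 2.744. With the replicate number as a replicate block the ratios were 2.901 for EZH2 and 2.973 for SUZ12 with p = 0.5 (exact sign-flip test, the smallest that 2 pairs allow); nothing in the labels ties equal numbers to a shared culture, and the block changed no call. Low pileups, 8 and 14 fragments at SUZ12 and 9 at EZH1 in DMSO, limit the precision of their ratios, and a peak list gives no value for an unlisted region.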

Other observations

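Among the 40 wider Polycomb genes, 4 had a promoter peak in each abemaciclib library plus a single DMSO library, and were named after their values were seen. That is 10% of them, against 7.39% of coding genes. RBBP4, a histone-binding subunit of PRC2, stood at 20.02 times the genome mean in DMSO library 1 and at 105.2 and 90.2 times in abemaciclib. CBX8, a canonical PRC1 reader of the methyl mark, stood at 20.7 in DMSO library 2 and at 114.4 and 118.9 in abemaciclib. PCGF2, the paralogue of BMI1, stood at 16.2 in DMSO library 2 and at 80.8 and 84.4 in abemaciclib. It was thus bound in 3 libraries where BMI1 was listed in 1, at a coverage of 19.2. KDM6B, an H3K27 demethylase, stood at 16.2 in DMSO library 2 and at 79.3 and 53.7 in abemaciclib. The 4 genes with a peak in a single abemaciclib library (10%, against 6.53% of coding genes) were EPOP, CBX7, YAF2 and L3MBTL2, all in library 1. BMI1 had its peak in library 2. Library 1 was also the commoner place for such a peak over all coding genes. With abemaciclib library 1 alone kept, 8821 coding genes were gained, against 8002 with library 2 alone.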
